A study of Mus musculus with 20 samples.

Results

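The genes described here are those that encode the proteins of the cytosolic ribosome in the mouse. They were chosen by symbol, as protein-coding genes named Rpl or Rps followed by a digit, together with Rpsa, Rplp0, Rplp1 and Rplp2, and with pseudogenes and the S6 kinase genes left out. Of the 54532 genes in the 2 count tables, 87 met the rule. Of these, 76 encode canonical ribosomal proteins, 7 encode paralogues (Rpl3l, Rpl7l1, Rpl10l, Rpl22l1, Rpl36al, Rpl39l and Rps27l), 3 are retrocopies that are annotated as genes (Rps27rt, Rpl37rt and Rps23rg1), and 1, Rps19bp1, encodes a protein that binds a ribosomal protein. Another 182 pseudogenes and 10 kinase genes matched the letters of the rule and were left out, and Rpl41 and Rpl32l were not analysed here.

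RNA was sequenced from the plantaris, a fast calf muscle, of 5-month-old male C57BL/6J mice. Each of the 4 groups held 5 libraries, namely sham surgery with a control virus (sham control), sham surgery with a miR-1 mimic virus (sham mimic), mechanical overload with the control virus (MOV control) and mechanical overload with the mimic virus (MOV mimic). Mechanical overload was a bilateral removal of part of the neighbouring gastrocnemius and soleus, so that the plantaris carried their load, and muscles were taken 10 days after surgery. Both viruses were lentiviruses carrying TurboGFP under a CMV promoter and were injected at surgery in 50 µL, the control virus on the left and the mimic virus on the right of the same mouse. The study therefore used 5 sham and 5 MOV mice, so the left and right muscles share animals, and the labels do not say which control and mimic libraries share a mouse. All mice carried a lentivirus, and no group was left without injection or surgery.

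Each ribosome holds a single copy of nearly every one of these proteins, so their mRNAs are usually made in step with each other and rank among the most abundant of a cell. Most of them carry a 5' terminal oligopyrimidine (TOP) tract, a C at the first base followed by further pyrimidines, through which mTOR and the RNA-binding protein LARP1 control their translation. Growing muscle makes more ribosomes, and skeletal muscle is known for a paralogue of its own, Rpl3l, which takes the place of Rpl3 in mature fibres.

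The start sites of 6 members are shown because they show the tract searched for and the starts of Rps27 and its retrocopy, whose coding sequences are identical. Each is given 5' to 3' from RefSeq (GRCm38.p6), from 10 bases before the annotated first base to 20 bases from it on, with capitals for the first run of C followed by 4 or more pyrimidines that begins at base -5 or later. Runs that begin before that base, as in Rps27 and Rps27rt, are in lower case.
Rps6 (minus strand, chr4:86857348-86857377): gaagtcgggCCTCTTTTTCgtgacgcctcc
Rpl38 (plus strand, chr11:114668570-114668599): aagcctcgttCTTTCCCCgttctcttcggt
Rps27 (minus strand, chr3:90213629-90213658): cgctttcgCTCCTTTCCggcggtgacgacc
Rps27rt (minus strand, chr9:114982720-114982749): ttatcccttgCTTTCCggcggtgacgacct
Rpl22l1 (plus strand, chr3:28805498-28805527): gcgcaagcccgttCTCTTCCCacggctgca
Rpl3l (plus strand, chr17:24727816-24727845): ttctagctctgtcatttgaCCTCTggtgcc

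In Rpl38 and Rps27rt the tract began exactly at base 1 of the annotated transcript, in Rps6 at base -1, in Rps27 at base -2, in Rpl22l1 at base 4 and in Rpl3l at base 10, where it was 5 bases long. A second annotated start of Rpl3l and that of Rpsa held no such tract. RefSeq windows were found for 67 of the 87 members. A C followed by at least 4 bases that are each C or T, on the transcribed strand, lay between bases -5 and 19 in 41 of them, or 61.2%, against 32.6% of the 27025 genes with a window. The windows of Rps27 and of its retrocopy Rps27rt shared an identical run of 19 bases from the tract on. This match says only that the letters are there.

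The libraries held 12036360 to 23056525 counts, with a median of 16940548. Of all counts the members took 1.56% ± 0.117 (SD, n = 5 here and for the other groups) in sham control and 1.91% ± 0.153 in MOV control, and with the mimic virus 1.47% ± 0.192 in sham and 1.95% ± 0.101 in MOV muscle. By library the share ran from 1.36% to 1.64% in sham and from 1.72% to 2.08% in MOV muscle on the left. On the right it ran from 1.25% to 1.76% and from 1.78% to 2.05%. Every MOV library was thus above every sham library of the same virus. The share is taken of all counts without TMM factors and follows the most abundant members. These shares and the CPM values (counts scaled to a common library size with TMM factors) below are parts of each library's mRNA, so they do not measure the RNA of a whole muscle, and fewer cells of a type and less RNA per cell cannot be told apart. The 182 pseudogenes drew few counts, 2.82 to 3.77 for every 100 counts of the members.

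Of the 87 members, 83 passed the filter on low counts in every comparison. The 4 that did not were Rpl10l, a testis paralogue with 0 counts in every library, the retrocopy Rps23rg1, with at most 1 count, Rpl36al, with 0 to 20 counts, and Rpl39l, with 0 to 42 counts. Zero counts for Rpl10l allow at most 3 counts in a library of this depth, as counting error alone. Among the 83 tested members, mean CPM over the 20 libraries ran from 1.68 to 972 with a median of 173, and 61 members were at 100 CPM or more.

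Levels between genes were compared per kilobase of transcript (GENCODE M1 reference transcripts). In sham control, Rplp1 and Rplp0, which form the acidic stalk on the large subunit where elongation factors dock, were the highest of 86 members with a length, at 1003 ± 105 and 691 ± 55.3 CPM per kilobase. The canonical members Rpl13a, at 6.49 ± 1.37, and Rps10, at 1.78 ± 0.741, were the lowest of the canonical members on the same scale. Rps10, Rpl13a and Rpl24 were the 3 canonical members with a mean under 20 CPM, and all their values below are counts assigned to the annotated gene, not a measure of protein. How reads that fit several places were counted is not given in the sources used here.

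Libraries of a group differed more for some members than for others. The SD of log2 CPM within groups, pooled over the 4 groups, had a median of 0.22 over the 83 members, from 0.11 to 1.27, and exceeded 0.5 for 5 members only, namely Rps10, Rps27, Rps27rt, Rpl7a and Rps27a.

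**Figure D1:**
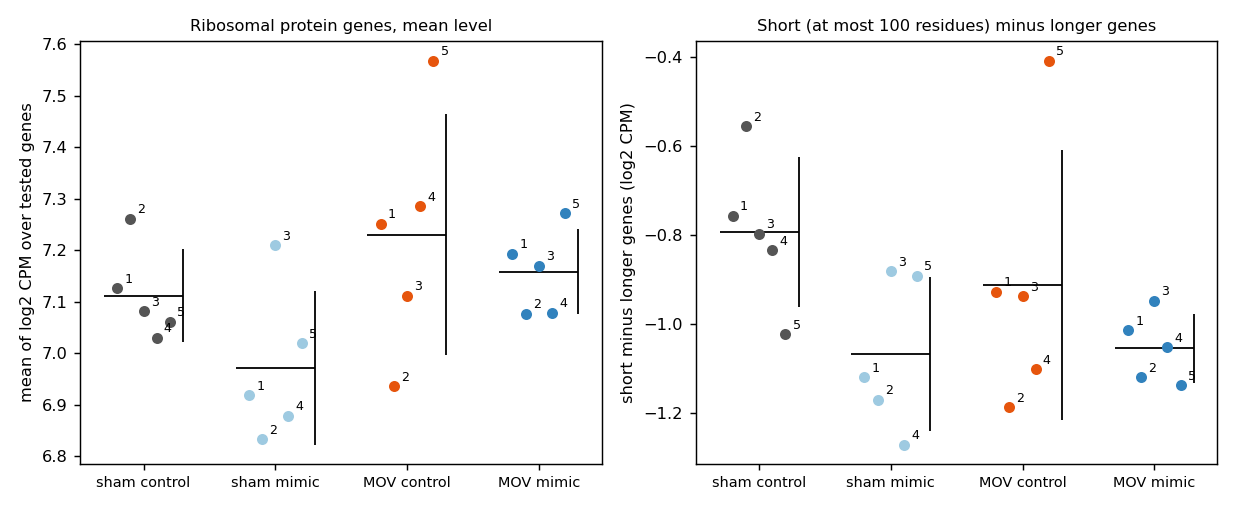
Left, the mean of log2 CPM over the 83 tested ribosomal protein genes in each library. Right, the mean log2 CPM of the 10 short genes minus that of the other 73, which include Rpl37rt, a gene with no protein length here. Points are single libraries with their replicate number, horizontal lines are group means and vertical lines are 1 SD (n = 5). MOV control replicate 5 is the highest library in both panels, at 7.57 and -0.41.

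Averaged over the 83 members, log2 CPM was 7.11 ± 0.09 in sham control and 7.23 ± 0.23 in MOV control, and 6.97 ± 0.15 and 7.16 ± 0.08 in the mimic groups (SD over 5 libraries), and the groups overlapped in every comparison. Under the control virus the difference was within the SD of MOV control. Under the mimic virus 4 of the 5 sham libraries lay below every MOV library, and replicate 3, at 7.21, reached into their range. Within MOV control, replicate 5 stood at 7.57 and replicate 2 at 6.94. Replicate 5 was the highest of its group for 66 of the 83 members, and replicate 2 the lowest for 58. Within sham mimic, replicate 3 was the highest for 57 members.

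Overload under the control virus was the first comparison (MOV control against sham control). No member passed an adjusted p of 0.05 in edgeR's quasi-likelihood test, in which 0.00668% of the 14974 genes tested were called, a single gene. At an unadjusted p under 0.05, 10 members were higher and 1 was lower, together 13.3% of the members against 18.2% of all genes tested (9.06% higher and 9.15% lower). The log2 fold change was above 0 for 70 of 83 members, or 84.3%, against 54.2% of all genes, and its median was 0.16 against 0.04 for all genes. The members are measured in the same libraries, so that their signs are not separate pieces of evidence.

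By symbol, 38 of 49 Rpl members and 32 of 34 Rps members had a log2 fold change above 0, with medians of 0.13 and 0.20. The Rps symbols include Rps19bp1, which is no ribosomal protein itself. The median over all 83 members depended on a single library. Without MOV control replicate 5 it was 0.05, with 53 of 83 members above 0, and the members at an unadjusted p under 0.05 on the higher side numbered 5, as they did without sham control replicate 1 (4 without MOV control replicate 4). With DESeq2 on the same counts, 3 members were called, where 6.1% of the 14974 genes tested were called. These were Rpl3l, lower, and Rpsa and Rps12, higher.

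Overload under the mimic virus was the matching comparison in the right muscles (MOV mimic against sham mimic). Again no member was called by edgeR, where 0.0% of the 14918 genes tested were called. At an unadjusted p under 0.05, 18 members were higher and 1 was lower, 22.9% of the members against 13.4% of all genes (7.31% higher and 6.08% lower). The log2 fold change was above 0 for 74 members, or 89.2%, against 51.8% of all genes, with a median of 0.22 against 0.02. Leaving out any single library kept the median between 0.18 and 0.27, while the count of higher members at an unadjusted p under 0.05 was 10 without sham mimic replicate 2 and 8 without sham mimic replicate 4. DESeq2 called 2 members higher, Rps14 and Rpl35a, where 1.48% of all genes were called. These right muscles come from the same mice as the left ones, so the second comparison is not an independent repeat of the first.

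**Figure D2:**
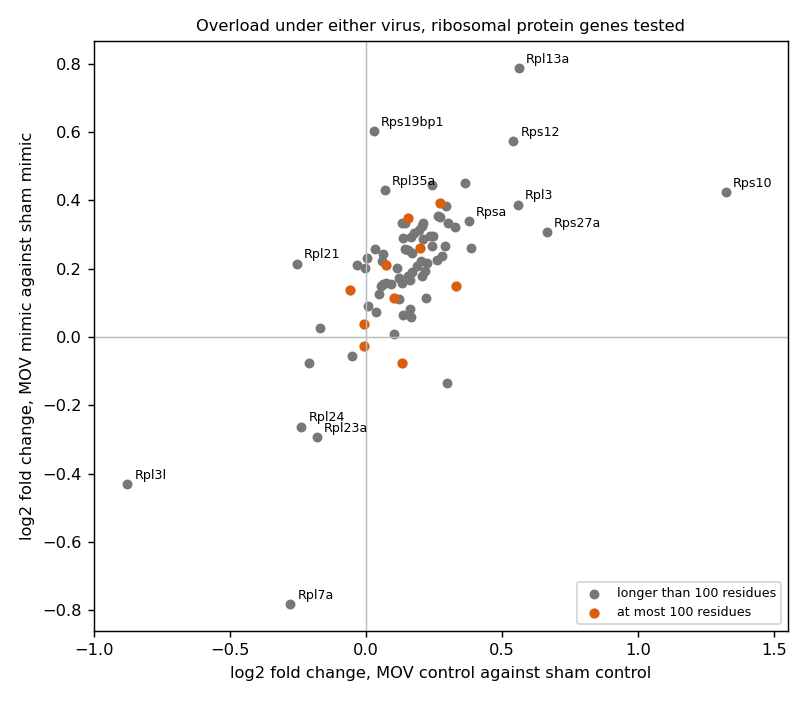
Log2 fold change of each of the 83 tested members in overload under the control virus (horizontal) and under the mimic virus (vertical), in edgeR fits. Orange points encode proteins of at most 100 residues. Most points lie above 0 on both axes, with Rpl3l at -0.88 and -0.43 and Rpl7a at -0.28 and -0.78 on the lower left.

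Markers of other cell types varied widely between the libraries of a group. Summed over 5 satellite cell and regenerating fibre markers (Pax7, Myod1, Myog, Myh3 and Myh8), the level ran from 58.7 to 658 CPM in sham control, 67.4 to 1558 in sham mimic, 274 to 1325 in MOV control and 76.5 to 1200.2 in MOV mimic, and of these genes edgeR called 0 in either overload comparison (3 at an unadjusted p under 0.05, all higher), DESeq2 1, Pax7, in the left muscles. Summed over 5 fibroblast markers it ran from 909.8 to 10143, 1335 to 8995, 3107 to 11725 and 5308 to 9249 CPM in the same order. Under the control virus 0 of them were higher and 1, Dcn, was lower at an unadjusted p under 0.05 (639 and 356 CPM on average). Under the mimic virus 0 were higher or lower. Pdgfra also had a lower mean in MOV control than in sham control, 27.2 against 38.1 CPM. Higher means there were those of Col1a1 (2659 against 1557), Col3a1 (3042 against 2973) and Postn (1785 against 1087). Over 8 leukocyte markers the sum ran from 175 to 752, 179 to 697, 160.4 to 627 and 355 to 646 CPM. Of the leukocyte markers only Cd79a, a B cell gene, was at 0 counts in any library (4 libraries). The 3 endothelial markers (Pecam1, Cdh5 and Kdr) summed to 192 to 251 CPM in sham control, 218 to 312 in sham mimic, 106 to 220.04 in MOV control and 164 to 182 in MOV mimic. By edgeR 0 of them were called, while at an unadjusted p under 0.05 2 were lower under the control virus and 3 under the mimic virus, and DESeq2 called Kdr lower in the first and Cdh5 lower in the second. Of the leukocyte markers 2, Ptprc and Cd3e, were higher at an unadjusted p in MOV mimic against sham mimic, and 2, Ptprc and Itgam, in MOV mimic against MOV control. Fast fibre markers (Myh4, Myh1, Myh2, Ckm, Acta1 and Pvalb) summed to between 53834 and 149808 CPM in every library, so that the defining genes of the labelled tissue were present in all of them. At an unadjusted p under 0.05 1 of the 6 was higher and 1 lower under the control virus, and 1, Ckm, was lower under the mimic virus. Myh1, the myosin of type IIX fibres, stood at 13575 ± 3927 CPM in sham control and 24242 ± 11688 in MOV control (log2 fold change 0.84 ± 0.33, edgeR adjusted p = 0.198). Myh4, the myosin of type IIB fibres, stood at 35399 ± 14093 CPM in sham control and 11730.2 ± 2804 in MOV control (log2 fold change -1.59 ± 0.30, edgeR adjusted p = 0.0554), and DESeq2 called it lower. The part of these cells in the level of the ribosomal protein genes was not tested.

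The paralogue pair Rpl3 and Rpl3l held the member with the most negative fold change in overload under the control virus. Rpl3 is the general form, which lies at the peptidyl transferase centre of the large subunit, and Rpl3l is its counterpart in heart and skeletal muscle. Their coding sequences were 73.3% identical over the alignment, with no identical run longer than 22 bases. Rpl3l lies on chromosome 17 (24727826 to 24736143) and Rpl3 on chromosome 15 (80077781 to 80083406; GRCm38.p6).

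Rpl3l stood at 753, 586, 400.1, 406 and 471 CPM in the sham control libraries and at 262, 283, 317, 207 and 348 CPM in the MOV control libraries. Every MOV control library was below every sham control library, a separation found for 1 of 83 members and for 2.45% of all genes in the lower direction. The log2 fold change was -0.88 ± 0.20 (SE; edgeR adjusted p = 0.063), and DESeq2 gave -0.89 ± 0.21 with an adjusted p of 0.00174, so the call rested on the tool. With no filter on low counts the edgeR adjusted p was 0.022. It was 0.0349 without sham control replicate 3 and 0.0477 without MOV control replicate 5.

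Under the mimic virus Rpl3l stood at 701, 391, 452, 420.2 and 433 CPM in sham and at 325, 321, 351, 219 and 542 CPM in MOV. Here the groups overlapped, through MOV mimic replicate 5, and the log2 fold change was -0.43 ± 0.24 (edgeR adjusted p = 0.449). Leaving out 1 library moved it to between -0.66, without MOV mimic replicate 5, and -0.27, without sham mimic replicate 1. The difference between the 2 overload effects on Rpl3l was 0.44 ± 0.32 on the log2 scale (edgeR interaction, unadjusted p = 0.185), so that they were not shown to differ, and it ran from 0.23 to 0.63 without those same libraries.

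Rpl3 had a higher mean in MOV than in sham muscle. It stood at 58.8, 109.6, 145, 155 and 119 CPM in sham control and 218, 174, 163, 174 and 130.1 CPM in MOV control, overlapping, with a log2 fold change of 0.56 ± 0.23 (edgeR adjusted p = 0.219). Under the mimic virus its log2 fold change was 0.39 ± 0.23 (edgeR adjusted p = 0.484). Per kilobase, Rpl3l exceeded Rpl3 in every group, at 382 ± 108 against 86.2 ± 27.6 CPM per kilobase in sham control and at 207 ± 39.2 against 126 ± 23.05 in MOV control (SD, n = 5).

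The ratio of Rpl3l to Rpl3 within a library was 12.8, 5.35, 2.77, 2.62 and 3.97 in sham control and 1.20, 1.63, 1.94, 1.19 and 2.68 in MOV control. The log2 ratio was 2.19 ± 0.93 in sham control and 0.72 ± 0.49 in MOV control, a difference of -1.47 (2.77-fold lower). An exact two-sided permutation test over the 252 splits gave p = 0.0159, where the smallest p it can give is 0.00794, and 0.254 after adjustment over 16 ratio comparisons. Under the mimic virus the log2 ratio was 2.04 ± 0.88 in sham and 1.13 ± 0.71 in MOV (exact permutation p = 0.103, adjusted 0.533). In both sham groups replicate 1 stood apart at 12.8 and 12.2. Those libraries also had the lowest summed fibroblast markers of their groups, 909.8 and 1335 CPM, and the highest summed fast fibre markers, 147910 and 149808 CPM, and the part of that in the ratio was not tested. Without sham control replicate 1 the difference in the left muscles was -1.10, and without sham mimic replicate 1 that in the right muscles was -0.52 in place of -0.91, its range over the libraries left out being -1.19 to -0.52.

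**Figure D3:**
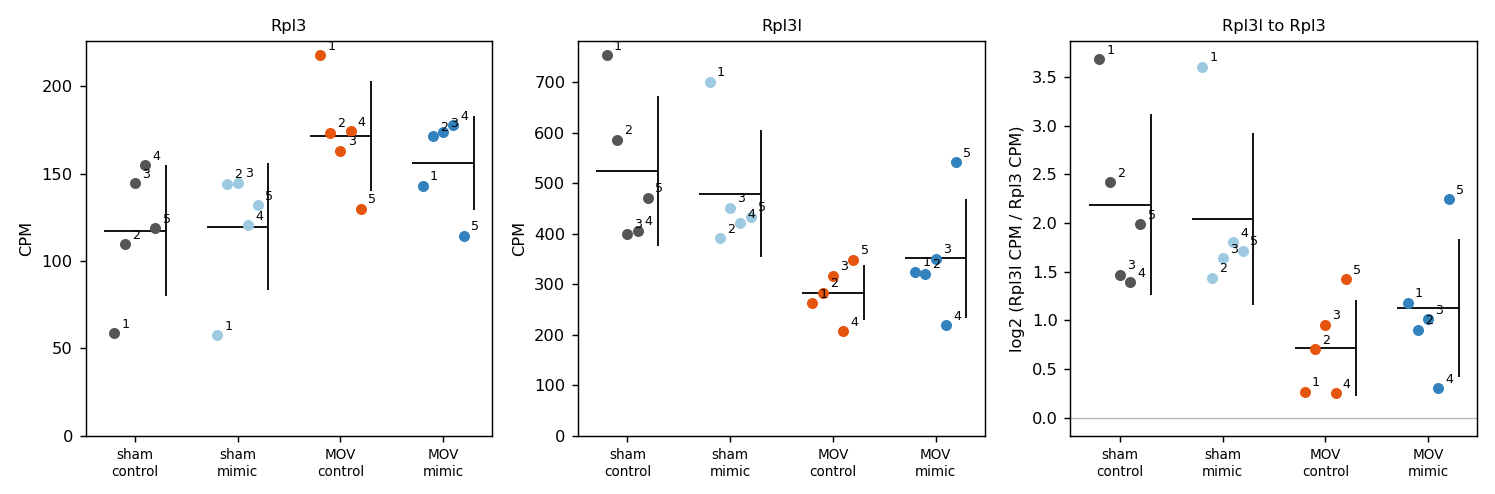
CPM of Rpl3 (left) and Rpl3l (middle) and the log2 ratio of Rpl3l to Rpl3 (right) in each library, with replicate numbers, group means (horizontal lines) and 1 SD (vertical lines, n = 5). MOV control libraries lie below all sham control libraries for Rpl3l, and both sham replicates 1 lie at the top of the ratio.

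The other paralogue ratios had smaller differences in overload, and were not tested against that of Rpl3l to Rpl3. Rpl22l1, the counterpart of the RNA-binding large-subunit protein Rpl22, was at 18.02 to 29.8 CPM in sham control and 15.8 to 27.4 CPM in MOV control, with Rpl22 at 109 to 135 and 110.3 to 173 CPM. The log2 ratio of Rpl22l1 to Rpl22 was -2.38 ± 0.24 in sham control and -2.62 ± 0.34 in MOV control (exact permutation p = 0.214, adjusted 0.571), and the difference was -0.24 under the control virus and -0.27 under the mimic virus. Rpl7l1, a relative of Rpl7 known for a part in ribosome assembly, had a log2 ratio to Rpl7 of -3.11 ± 0.16 and -3.16 ± 0.37 in the same groups (exact permutation p = 0.841, adjusted 0.906), and under the mimic virus it differed by -0.14 (exact permutation p = 0.0635, adjusted 0.508). Rps27l, a p53-responsive counterpart of Rps27, was at 56.6 to 83.6 CPM in sham control and 60.5 to 112 CPM in MOV control, with a log2 fold change of 0.33 ± 0.19 (edgeR adjusted p = 0.390). Its log2 ratio to Rps27 differed by 0.62 in MOV control against sham control (exact permutation p = 0.167, adjusted 0.533), by 0.02 in MOV mimic against sham mimic and by 1.08 in sham mimic against sham control (exact permutation p = 0.151, adjusted 0.533). The first was 0.22 without MOV control replicate 2. These ratios use the counts assigned to Rps27 alone, whose split from the retrocopy Rps27rt is uncertain. In log2 CPM, Rps27 alone differed by -0.33 and -1.14 in the comparisons with 0.62 and 1.08. Its sum with Rps27rt differed by 0.01 and -0.21 there. None of the 16 ratio comparisons passed after adjustment, and at an unadjusted exact p under 0.05 only Rpl3l to Rpl3 in the left muscles did. The smallest exact p is 0.00794, so a single ratio could not have passed after adjustment over 16 comparisons whatever its values. For the partners with no ratio, the log2 fold changes of Rpl10, Rpl36a and Rpl39 in MOV control against sham control were 0.14 ± 0.12, 0.21 ± 0.16 and 0.13 ± 0.24, none of them called by edgeR.

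Rps27 and its retrocopy Rps27rt have identical coding sequences and varied widely between libraries. How reads were assigned to either was not tested. Rps27 is a zinc-finger protein of the small subunit, encoded on chromosome 3 (90212667 to 90213648), and Rps27rt is an intronless copy on chromosome 9 (114982366 to 114982739). Their coding sequences of 255 bases had 0 mismatches, and the reference transcripts shared an identical run of 337 bases of 345.

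Rps27 was at 122, 119, 84.6, 114 and 78.6 CPM in sham control, 24.7, 21.7, 163, 87.3 and 27.9 in sham mimic, 83.0, 20.9, 79.9, 118 and 212 in MOV control and 33.5, 29.9, 25.6, 81.1 and 146 in MOV mimic. In the same libraries Rps27rt was at 39.2, 80.5, 48.1, 32.3 and 58.0, then 112, 90.3, 17.99, 17.7 and 117, then 67.0, 94.9, 64.9, 15.6 and 52.2, and then 107, 101, 143, 36.6 and 32.1 CPM. The retrocopy thus took from 9.95% to 84.8% of the counts of both. It took 76.2% or more in 7 libraries, of which 6 carried the mimic virus and 1 was MOV control replicate 2, and 44.8% or less in the other 13.

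Over the 20 libraries Rps27 spanned a 10.2-fold range and Rps27rt a 9.16-fold range, while their sum, 104.9 to 264 CPM, spanned a 2.52-fold range. In sham mimic against sham control the log2 CPM of Rps27 differed by -1.14 (exact permutation p = 0.135), that of Rps27rt by 0.08 (exact p = 0.881) and that of the sum by -0.21 (exact p = 0.262). The sum differed by 0.01 in MOV control against sham control (exact p = 0.960). Rps27l, with 61 mismatches to Rps27 in the coding sequence and no identical run over 11 bases, ran from 55.6 to 112 CPM. The split between Rps27 and Rps27rt is reported as uncertain in each library. The counts and medians over members hold them as separate genes, and the sum was added after seeing the data.

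**Figure D4:**
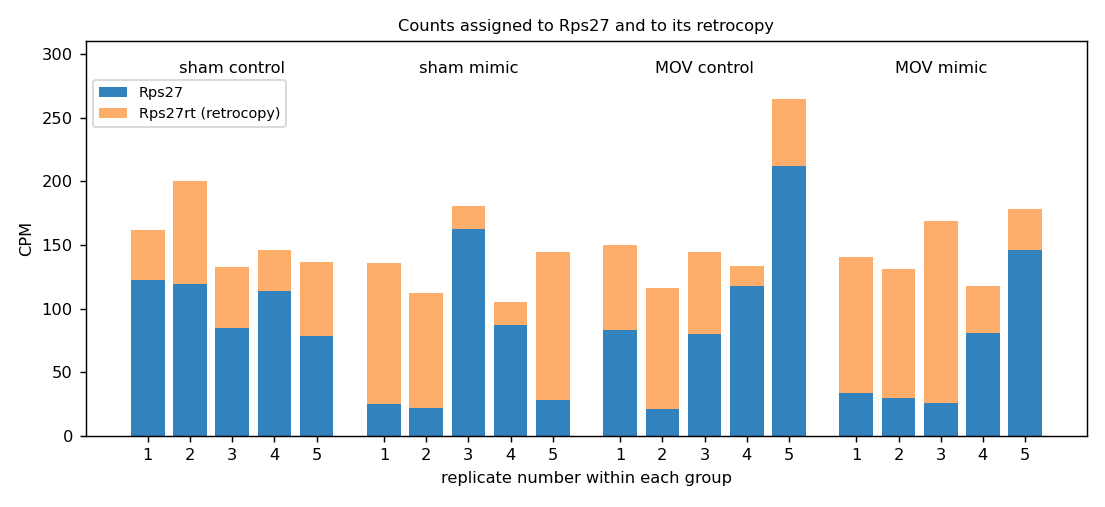
CPM assigned to Rps27 (blue) and to its retrocopy Rps27rt (orange, stacked) in each of the 20 libraries, by group and replicate number. The share of the retrocopy runs from 9.95% to 84.8%, while the height of the stack runs from 104.9 to 264 CPM.

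The stalk proteins had small positive fold changes under either virus. Rplp0 was at 867 to 1051 CPM in sham control and 953 to 1244 CPM in MOV control, overlapping, with a log2 fold change of 0.16 ± 0.13 (edgeR adjusted p = 0.574). The log2 fold changes of Rplp1 and Rplp2 in that comparison were 0.19 ± 0.16 and 0.36 ± 0.19, and under the mimic virus those of Rplp0, Rplp1 and Rplp2 were 0.18 ± 0.13, 0.21 ± 0.15 and 0.45 ± 0.15. None of these was called. Under the control virus all 3 rested in part on MOV control replicate 5, without which they were 0.08, 0.05 and 0.23 in the order Rplp0, Rplp1 and Rplp2.

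Rpsa, the small-subunit protein also known as the laminin receptor, was the member whose groups separated under both viruses. It stood at 555, 584, 536, 528 and 586 CPM in sham control and at 743, 608, 676, 758 and 820.3 CPM in MOV control, a log2 fold change of 0.38 ± 0.13 (edgeR adjusted p = 0.144; DESeq2 adjusted p = 0.0300). In the right muscles it stood at 603, 567, 616, 514 and 614 CPM in sham mimic and at 742, 661, 753, 698 and 806 CPM in MOV mimic, with 0.34 ± 0.13 (edgeR adjusted p = 0.310). All MOV libraries were above all sham libraries on either side. Such a separation in the higher direction was found for 3 members under the control virus (Rpsa, Rps12 and Rps4x), 3.61% against 2.44% of all genes, and for 5 under the mimic virus (Rpsa, Rpl7, Rpl27, Rpl35a and Rps14), 6.02% against 0.985%.

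Rps12, a small-subunit protein with many pseudogenes (23 annotated), stood at 82.0, 105, 86.5, 103 and 103 CPM in sham control and at 174, 126, 127, 109 and 158 CPM in MOV control. The MOV control libraries were all above, and the log2 fold change was 0.54 ± 0.15 (edgeR adjusted p = 0.0871; DESeq2 adjusted p = 0.0229). Under the mimic virus it was 0.57 ± 0.21, with overlapping groups, 63.6 to 134 CPM against 127 to 189 CPM.

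Among the regulatory members, Rps6, the substrate of S6 kinase downstream of mTOR, stood at 224 to 265 CPM in sham control and 256 to 319 CPM in MOV control, a log2 fold change of 0.20 ± 0.11. Under the mimic virus it was 0.31 ± 0.13 (edgeR adjusted p = 0.340). Rpl5 and Rpl11, which with 5S rRNA bind Mdm2 when ribosome assembly is disturbed, had log2 fold changes of 0.10 ± 0.13 and 0.07 ± 0.14 under the control virus, and of 0.01 ± 0.14 and 0.16 ± 0.12 under the mimic virus. None was called.

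The largest positive values belonged to members with few counts or a wide spread. Rps10, a protein of the small-subunit head, stood at 0.467 to 1.53 CPM (6 to 25 counts) in sham control and 0.786 to 4.41 CPM (11 to 83 counts) in MOV control, with a log2 fold change of 1.32 ± 0.46 (edgeR adjusted p = 0.158), and in the MOV mimic libraries it ran from 0 to 4.17 CPM. Rps27a, which is made as a fusion with ubiquitin, stood at 58.6 to 128 CPM in sham control and 79.8 to 194 CPM in MOV control, 0.67 ± 0.27 (edgeR adjusted p = 0.211). Rpl13a, which also silences inflammatory mRNAs when released from the ribosome, stood at 4.90 to 8.29 and 7.64 to 11.9 CPM in these groups, 0.56 ± 0.20, and at 4.63 to 7.62 and 7.60 to 16.8 CPM under the mimic virus, 0.79 ± 0.25 (edgeR adjusted p = 0.285).

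At the low end beside Rpl3l were large-subunit members. Rpl7a, with 14 annotated pseudogenes, stood at 27.9, 33.3, 60.6, 29.6 and 29.2 CPM in sham mimic and 21.8, 25.7, 23.4, 7.52 and 25.7 CPM in MOV mimic. Its groups did not overlap, as was found for 1 member and for 1.74% of all genes in the lower direction, with a log2 fold change of -0.78 ± 0.31 (edgeR adjusted p = 0.330), while under the control virus they did, with -0.28 ± 0.34. Both values depended on single libraries. The first was -0.51 without sham mimic replicate 3, and the second ran from -0.54, without MOV control replicate 1, to -0.05, without MOV control replicate 2. The difference between them was not called by edgeR and ran from -0.74 to -0.24 with 1 library left out. Rpl21 and Rpl24 had -0.25 ± 0.24 and -0.24 ± 0.15 in overload under the control virus, and Rpl23a had -0.29 ± 0.19 under the mimic virus. Rpl21 was at -0.10 without sham control replicate 3, Rpl24 at -0.16 without sham control replicate 1 and Rpl23a at -0.19 without MOV mimic replicate 4. Rps19bp1, which binds a ribosomal protein but is none itself, had 0.03 ± 0.20 under the control virus and 0.60 ± 0.29 under the mimic virus, or 0.32 without MOV mimic replicate 4. By a rule of more than 1.5 interquartile ranges beyond the quartiles, 9 members stood apart in MOV control against sham control, namely Rps10, Rps27a, Rpl13a, Rpl3 and Rps12 above and Rpl24, Rpl21, Rpl7a and Rpl3l below.

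The mimic was compared with the control virus in loaded and unloaded muscle. In MOV mimic against MOV control no member was called by edgeR, where 0.0% of 15220 genes were called, or by DESeq2 (0.0197%), and 0 members had an unadjusted p under 0.05 against 4.21% of all genes (2.46% higher and 1.75% lower). The log2 fold change was above 0 for 30 members and below 0 for 53, with a median of -0.03. That direction turned with 1 library. Without MOV control replicate 5 the median was 0.06, with 53 members above 0, and without MOV control replicate 2 it was -0.11, with 19 above 0. The most negative values were those of Rps10 (-0.70 ± 0.80), Rpl7a (-0.69 ± 0.39) and Rps27 (-0.68 ± 0.56), and the most positive those of Rps27rt (0.52 ± 0.45), Rpl3l (0.32 ± 0.23) and Rps19bp1 (0.21 ± 0.29). Single libraries moved these values by over 1.5 times. Rps10 ran from -1.39, without MOV mimic replicate 2, to -0.39, without MOV mimic replicate 4. Rpl7a was at -0.44 without MOV control replicate 1 and at -0.93 without MOV control replicate 2, and Rps27 was at -0.24 without MOV control replicate 5 and at -1.28 without MOV mimic replicate 5. For Rpl3l the value was 0.10 without MOV mimic replicate 5. Rps27rt was at 0.24 without MOV mimic replicate 3.

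In sham mimic against sham control no member was called either, with 0.0% of 14746 genes called by edgeR and 0 by DESeq2. Here 70 of 83 members had a log2 fold change below 0, with a median of -0.10 against 0.00 for all genes, and 8 members, all lower, had an unadjusted p under 0.05, 9.64% against 1.72% of all genes (1.16% lower). The 8 were Rpl21, Rpl37, Rps28, Rpl38, Rpl37a, Rpl36, Rpl35a and Rpl23. The groups did not overlap for 1 member, Rpl29, which was lower, and for 0.197% of all genes in that direction. Rpl21 was at 55.8, 57.9, 92.9, 85.4 and 37.2 CPM in sham control and 43.2, 38.6, 39.8, 29.8 and 42.1 CPM in sham mimic, overlapping through sham control replicate 5, with a log2 fold change of -0.77 ± 0.22. Rps27 and Rps29 followed with -0.67 ± 0.50 and -0.52 ± 0.24, and Rps27rt, Rps10 and Rpl30 were highest with 0.45 ± 0.51, 0.19 ± 0.53 and 0.12 ± 0.22. With 1 library left out Rps27 ran from -1.35, without sham mimic replicate 3, to -0.43, without sham mimic replicate 2, and Rps27rt from 0.18, without sham mimic replicate 5, to 0.70, without sham mimic replicate 4, while Rps10 and Rpl30 turned below 0 without sham mimic replicate 4. The count of 8 was 2 without sham control replicate 2, 3 without sham mimic replicate 1 or 4, 4 without sham mimic replicate 2 and 17 without sham mimic replicate 3. The members above 0 numbered 28 without sham control replicate 2, 23 without sham mimic replicate 2, and 20 without sham control replicate 5 or sham mimic replicate 4. The comparison shares its sham mimic and sham control libraries with the overload comparisons, so that a low sham mimic group enters both.

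Short members had lower medians than the longer ones in both comparisons of the viruses. Of the members tested, 10 encode proteins of at most 100 residues (Rpl37, Rpl37a, Rpl38, Rpl39, Rps21, Rps27, Rps27l, Rps27rt, Rps28 and Rps29). The other 73 are called longer here, although Rpl37rt, a retrocopy among them, has no protein length in the reference used. In sham mimic against sham control the median log2 fold change of the short members was -0.40 against -0.08 for the 73 longer members. Below 0 were 9 of the 10 short and 61 of the 73 longer members. In MOV mimic against MOV control the medians were -0.27 and -0.03, with 9 of 10 and 44 of 73 below 0. The exception among the short members was Rps27rt in both, and with Rps27 and Rps27rt left out an alternative added after seeing the data, the medians of the other 8 were the same, -0.40 and -0.27, with 8 of 8 below 0 in both. In overload the medians were 0.12 and 0.16 under the control virus and 0.14 and 0.22 under the mimic virus. With 1 library left out, the median of the short members minus that of the longer ones ran from -0.23 to 0.01 in MOV control against sham control, -0.23 being the value without MOV control replicate 5, and from -0.13 to -7.9e-05 in MOV mimic against sham mimic. The same difference ran from -0.37 to -0.25 in the sham comparison and from -0.32 to -0.10 in the MOV comparison, and the last range overlaps both of those of overload. Whether the overload and virus comparisons differ in it was not tested. As a description across genes, which are not independent replicates and share libraries and length, Spearman's rho of log2 fold change with protein length over 82 members was 0.39 in the sham comparison and 0.26 in the MOV comparison, and 0.04 and -0.01 in the overload comparisons.

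By library, the mean log2 CPM of the short members minus that of the longer ones was -0.79 ± 0.17 in sham control against -1.07 ± 0.17 in sham mimic, and -0.91 ± 0.30 in MOV control against -1.05 ± 0.08 in MOV mimic (SD over 5 libraries). MOV control replicate 5, at -0.41, was nearest to 0. Without it the difference between the medians of short and longer members in MOV mimic against MOV control was -0.10 in place of -0.25. Rps29, a small-subunit zinc-finger protein, stood at 116, 121, 107, 86.6 and 64.4 CPM in sham control and 53.7, 51.6, 102, 50.8 and 87.9 CPM in sham mimic, and Rps28, a small-subunit protein at the mRNA exit, at 50.2, 63.4, 58.4, 49.6 and 42.5 and 36.3, 31.8, 48.4, 34.7 and 42.8 CPM. Both pairs of groups overlapped. The log2 fold change of Rps28 was -0.45 ± 0.14 and that of Rpl38, a large-subunit protein, -0.45 ± 0.20, each with an edgeR adjusted p of 1.00.

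**Figure D5:**
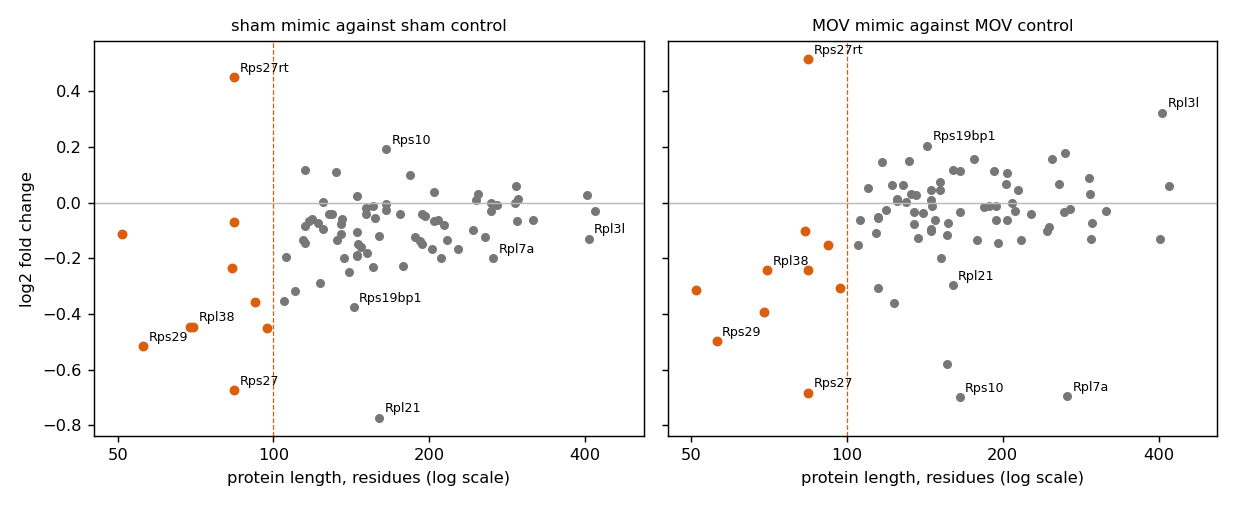
Log2 fold change of mimic against control virus in sham (left) and MOV muscle (right) against protein length for the 82 members with a length, on a log axis. Orange points left of the dashed line encode at most 100 residues, with medians of -0.40 and -0.27. Medians over the other 73 tested members, which include Rpl37rt, not drawn for want of a length, are -0.08 and -0.03.

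The 10 members with the most annotated pseudogenes (11 or more, namely Rpl31, Rps12, Rpl21, Rpl7a, Rpl23a, Rps19, Rpl19, Rps2, Rpsa and Rpl17) had medians of 0.14 and 0.18 in the 2 overload comparisons, against 0.16 and 0.22 over all members. Under the control virus they ran from -0.28 (Rpl7a) to 0.54 (Rps12). Members with and without a pyrimidine tract at the start had medians of 0.17 (39 members) and 0.14 (24 members) under the control virus, and of 0.22 and 0.22 under the mimic virus.

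The effect of the virus on overload was tested as an interaction over all 20 libraries. No member was called by edgeR, where 0.0% of 16166 genes were called, or by DESeq2 (0.00619%), and 0 members had an unadjusted p under 0.05 against 2.64% of all genes. The interaction was above 0 for 57 of 83 members and for 48.0% of all genes. The median over members was 0.06, which went to -0.01 without MOV control replicate 2. The extremes were Rps10 (-0.90 ± 1.02), Rpl7a (-0.51 ± 0.49) and Rpl30 (-0.44 ± 0.38) on the low side and Rps19bp1 (0.58 ± 0.36), Rpl21 (0.46 ± 0.31) and Rpl3l (0.44 ± 0.32) on the high side. Rps10 ran from -1.57, without MOV mimic replicate 2, to -0.50, without sham mimic replicate 4. Rpl30 was at -0.10 without MOV control replicate 5, and both Rps19bp1, without MOV mimic replicate 4, and Rpl21, without MOV mimic replicate 3, were at 0.30.

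Other genes of translation were set beside the members. The 77 mitochondrial ribosomal protein genes, of which 76 were tested, had a median log2 fold change of -0.12 in overload under the control virus and -0.11 under the mimic virus. The 7 other TOP mRNAs (Tpt1, Naca, Btf3, Pabpc1, Npm1, Nap1l1 and Hnrnpa1) had medians of 0.23 and 0.21, the 6 elongation factor genes 0.16 and 0.03, and the 27 initiation factor genes -0.06 and -0.06, under the control and the mimic virus. The 9 genes of TOP and S6 control, such as Larp1, Mtor and Rps6kb1, had -0.12 and -0.14. By edgeR 0 genes of these lists were called in any comparison. At an unadjusted p under 0.05, 8 mitochondrial ribosomal protein genes were lower in either overload comparison, 10.5% of those tested against 9.15% and 6.08% of all genes, with 2 and 1 higher. DESeq2 called 1 gene of these lists, the elongation factor gene Eef1b2, higher in overload under the mimic virus.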

How the data were processed

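The authors trimmed reads with Trim Galore 0.6.10 and cutadapt 4.4, checked them with FastQC 0.11.9, aligned them to GRCm38 with HISAT2 2.0.5 and counted them with featureCounts 1.5.0-p3. Versions are as in the submitters' processing notes. The annotation release, the use of strand and the treatment of reads with several locations are not given in the sources used here. The deposited values are raw counts per gene, in 1 table for the control virus and 1 for the mimic virus, and the authors did not normalize them in these files.

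Here the tables were joined by gene. Members, symbols and classes come from RefSeq-based tables and GENCODE M1 lengths, with 4 members matched through older symbols, and start windows from RefSeq GRCm38.p6. The main test was edgeR 4.0.16's quasi-likelihood test (R 4.3.3) with TMM factors and filterByExpr, on the 10 libraries of each comparison or all 20 for the interaction, with Benjamini-Hochberg adjustment over all genes tested and a threshold of 0.05. Log2 CPM used a prior count of 2. Paralogue ratios were tested by exact two-sided permutation over 252 splits, enumerated in Python 3.11.15. Correlations with protein length were computed with SciPy 1.17.1. Values called short concern proteins of at most 100 residues.

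Members named singly were the paralogue pairs, the stalk proteins, Rpsa, Rps6, Rpl5 and Rpl11, the 3 with the highest and the 3 with the lowest fold change in each comparison and those beyond the quartiles by over 1.5 interquartile ranges in MOV control against sham control. Rps4x, Rps14, Rps28, Rpl7, Rpl27, Rpl38, Rpl35a and others listed at an unadjusted p were named after their values were seen. Members and gene lists were chosen with earlier results of these data known. Alternatives were DESeq2 1.42.0, its size factors or upper quartile factors in edgeR, no filter or at least 10 counts in total, all 20 libraries in the fit, a replicate block, each library left out in turn and, chosen after seeing the data, Rps27 and Rps27rt summed or left out of the short members. A further short list of translation genes is not reported here. The labels do not name the animal of each library, so p-values measure the spread between these libraries. The edgeR step was run on simulated data with known changes and the same spread setting for all genes. The changes put in were larger than the medians over members reported here. That run therefore cannot tell how changes of that size are found. No 2 libraries of a group had counts that agree within sampling noise.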

Additional observations from a re-analysis of the deposited data

Results flagged for a closer look

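In 11 of 152 groups of 5 libraries tested for the named members and ratios, 1 library lay far from the other 4 (Dixon's 95% critical value), where chance flags about 1 in 20 groups. Values are log2 CPM unless said otherwise. Rpl7a, a large-subunit protein, had such a library in 3 groups, with 5.96 in sham control replicate 1 (others 5.14 to 5.27), 5.93 in sham mimic replicate 3 (others 4.81 to 5.06) and 2.93 in MOV mimic replicate 4 (others 4.45 to 4.69). MOV mimic replicate 5 stood above the others of its group for 3 large-subunit members, with Rpl10 at 8.72 (others 8.40 to 8.46), Rpl22 at 7.26 (others 6.96 to 7.01) and Rpl5 at 8.51 (others 8.01 to 8.14). Sham mimic replicate 1 stood apart for the paralogue pair, with Rpl3 at 5.85 (others 6.91 to 7.18), Rpl3l at 9.45 (others 8.61 to 8.82) and a log2 ratio of Rpl3l to Rpl3 of 3.60 (others 1.44 to 1.80). Rplp0 stood at 9.61 in sham mimic replicate 4 (others 9.83 to 9.89), and Rps29 at 6.59 in MOV mimic replicate 1 (others 6.09 to 6.15). The cause was not tested for any of these.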

How the results depend on the processing

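Leaving out each library in turn kept the call of every member in edgeR except Rpl3l in MOV control against sham control (0 to 1 members called lower). There the members above 0 ranged from 53 to 76, those higher at an unadjusted p under 0.05 from 4 to 14, those lower from 1 to 2, and the median from 0.05 to 0.23. In MOV mimic against sham mimic the same values ranged from 71 to 78, 8 to 27, 0 to 2 and 0.18 to 0.27, in MOV mimic against MOV control from 19 to 53, 0 to 1, 0 to 3 and -0.11 to 0.06, and in the interaction from 39 to 73, 0 to 2, 0 to 0 and -0.01 to 0.18. In sham mimic against sham control 9 to 28 members were above 0, 2 to 17 were lower at an unadjusted p and the median ran from -0.14 to -0.04.

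The log2 ratio of Rpl3l to Rpl3 ranged from -0.54 to 0.22 in sham mimic against sham control, that of Rpl22l1 to Rpl22 from -0.14 to 0.041 there and from -0.28 to 0.091 in MOV mimic against MOV control, that of Rps27l to Rps27 from -0.40 to 0.45 in MOV mimic against sham mimic, and that of Rpl7l1 to Rpl7 from -0.13 to 0.10 in MOV control against sham control, -0.023 to 0.078 in the sham comparison and -0.22 to 0.017 in MOV mimic against MOV control. The ratio of Rpl3l to Rpl3 in MOV control against sham control ranged from -1.67 to -1.10. With Rps27 and Rps27rt summed, Rps27l to Rps27 was -0.0073 in MOV mimic against sham mimic and -0.13 in MOV mimic against MOV control. Single members that changed sign when a library was left out were, in MOV control against sham control, Rpl11 (-0.047 to 0.13), Rpl22 (-0.084 to 0.10), Rpl39 (-0.16 to 0.24) and Rps27 (-0.45 to 0.25), in MOV mimic against sham mimic, Rpl22l1 (-0.29 to 0.13), Rpl39 (-0.17 to 0.14), Rpl5 (-0.10 to 0.053) and Rps27 (-0.63 to 0.65), in the sham comparison, Rpl30 (-0.062 to 0.27) and Rps10 (-0.19 to 0.44), and in MOV mimic against MOV control, Rps19bp1 (-0.074 to 0.38). Rpl5 in MOV mimic against sham mimic was -0.026 with no filter, -0.021 with at least 10 counts and -0.0032 with all 20 libraries.

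DESeq2 called 2 members higher and 1 lower in MOV control against sham control and 2 higher in MOV mimic against sham mimic, where 29 were higher at an unadjusted p. With no filter on low counts, 1 member was called lower and 6 were higher at an unadjusted p in MOV control against sham control, 8 higher and 2 lower in MOV mimic against sham mimic, and 1 higher and 3 lower in MOV mimic against MOV control. With at least 10 counts 1 was higher in the last, and with all 20 libraries 1 was lower there and 3 in the sham comparison. The cause of these changes was not tested. The share of all genes at an unadjusted p is not given here for these alternatives, the replicate block or a library left out. Those counts are therefore not read as results about the members. Over all genes, edgeR called 1 in MOV control against sham control, 388 with no filter, 163 with at least 10 counts, 36 with all 20 libraries, 426 without sham control replicate 3, 318 without MOV control replicate 5, 6 without MOV control replicate 3 and 0 without sham control replicate 2, 4 or 5 or MOV control replicate 1 or 2. In MOV mimic against sham mimic it called 0, 1 with no filter, 3 with all 20 libraries and 101 without MOV mimic replicate 5.

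Same-numbered control and mimic libraries correlated by over 0.1 in 7 of 10 pairs, and 5 of 10 control libraries correlated best with their own number, so the numbers were not taken to pair muscles, although left and right muscles came from the same mice and in 10 of 10 pairs the correlation exceeded the mean with other numbers. The labels do not settle the pairing. With a replicate block in edgeR, 5 members were higher at an unadjusted p in MOV control against sham control. In MOV mimic against sham mimic 11 were. At the same threshold 2 were lower in MOV mimic against MOV control and 1 was higher in the interaction. With this block Rps27 was 0.17 in MOV mimic against sham mimic. Sham and MOV muscles came from different mice, so in the overload comparisons the block joins libraries that share no animal. With the replicate block in DESeq2, at an unadjusted p under 0.05, 2 members were higher and 2 lower in MOV mimic against MOV control. In the interaction 1 was higher. At an adjusted p under 0.05, 127 genes were called in MOV mimic against MOV control in place of 3. By edgeR 0 members were called with or without the block in any comparison, and with the block DESeq2 called 0 members in the virus comparisons and the interaction. The block was not run in DESeq2 for the overload comparisons. Under these alternatives 749 values of comparisons and ratios, and 1236 of named members and all-gene counts, kept their direction and side of the threshold or stayed within the spread. Precision is limited by counts for Rps10 (0 to 89 counts) and by 5 libraries a group.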
